A study of Mus musculus with 36 samples.

Results

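In cortical neurons from mouse embryos, 230 open chromatin regions were gained within 1 h of brain-derived neurotrophic factor (BDNF). After 1 h of potassium chloride (KCl) they were gained less or not at all, and after 6 and 10 h of KCl they were gained. They were found in an ATAC-seq table of 58177 peaks, of which 40667 had a mean count of at least 20 reads per library and were kept. The 230 peaks were chosen by their measured levels. Their rise with BDNF at 1 h and with KCl at 6 and 10 h is thus a description here and not a finding. The same holds for the smaller or absent rise with KCl at 1 h. The level, called L below, was the log2 ratio of the mean CPM (counts scaled to reads in all peaks of the library, with 0.5 added) in a stimulated group to that in the 6 controls, minus the median of that ratio over all kept peaks. A peak was selected on L of at least 1 with BDNF at 1 h, below 0.5 with KCl at 1 h, and at least 1 with KCl at both 6 and 10 h. BDNF at 6 and 10 h had no limit on L, but the mean count was taken over all 18 libraries, theirs included.

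The neurons were dissociated from the cortex of pooled CD-1 embryos at embryonic day 15 and were used after 7 days in vitro. All cultures, controls included, were silenced for 2 h with the NMDA receptor blocker AP-5 (100 µM) and the sodium channel blocker tetrodotoxin (TTX, 1 µM). Stimulated cultures then received 10 ng/ml BDNF or 55 mM KCl for 1, 6 or 10 h, and their controls stayed in AP-5 and TTX for 3, 8 or 12 h in total. Each of the 9 groups had 2 ATAC-seq and 2 RNA-seq libraries, described as biological replicates. The 6 controls of all times were taken as 1 group in the main tests. The p-values thus measure the spread between libraries within all stimulated groups and among the 6 controls, which differ in time. This spread was pooled in 1 fit per assay and moderated across peaks or genes, and the p-values cover nothing wider.

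BDNF is a secreted neurotrophin that binds the receptor TrkB and signals mainly through the MAP kinase, PI3 kinase and phospholipase C pathways. Raised extracellular KCl depolarises the membrane and lets calcium in through voltage-gated channels. Both lead to transcription of immediate early genes, among them those for the Fos and Jun proteins, which pair to form the factor AP-1. AP-1 binds the palindrome-like sequence TGAGTCA or TGACTCA, each the other read on the opposite strand, and is known for acting at enhancers that become accessible after stimulation of neurons. ATAC-seq measures accessibility as the number of insertions of the transposase Tn5, and in bulk cultures a gain in fewer cells cannot be told apart from a smaller gain in all cells.

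The sequences around the AP-1 motif show what most of these peaks share, although the rule used no sequence. Below are 81 bases each of 4 of the 10 peaks with the largest gain (ranked by the smallest of the 3 gains that the rule required), of the peaks nearest to 3 genes whose RNA is described further on, and of a strongly gained peak with no AP-1 motif. Coordinates are those of the mouse build mm10, the letters are from the RefSeq copy of that assembly, 5′ to 3′ on the plus strand, and capitals mark the AP-1 motif.
Peak downstream of the Nsun3 start, chr16:62729972-62730052: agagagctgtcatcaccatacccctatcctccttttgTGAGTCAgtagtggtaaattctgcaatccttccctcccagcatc
Peak upstream of Aga, chr8:53146849-53146929: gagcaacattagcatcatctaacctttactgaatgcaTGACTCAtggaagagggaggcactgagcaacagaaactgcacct
Peak upstream of Cyp2c55, chr19:38973855-38973935: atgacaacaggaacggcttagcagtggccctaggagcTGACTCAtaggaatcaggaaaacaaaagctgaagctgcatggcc
Peak downstream of the Gdf6 start, chr4:10357709-10357789: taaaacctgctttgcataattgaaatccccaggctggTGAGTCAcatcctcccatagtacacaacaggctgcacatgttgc
Peak upstream of Serpinb2, chr1:107505993-107506073: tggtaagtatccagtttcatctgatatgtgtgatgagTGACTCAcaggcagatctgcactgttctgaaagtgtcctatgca
Peak upstream of Hrh1, chr6:114347928-114348008: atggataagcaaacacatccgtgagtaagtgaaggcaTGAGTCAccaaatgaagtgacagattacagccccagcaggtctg
Peak upstream of Arhgap36, chrX:49452686-49452766: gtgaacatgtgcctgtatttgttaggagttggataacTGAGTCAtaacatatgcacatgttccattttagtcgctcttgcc
Peak downstream of the Sulf1 start, no AP-1 motif, chr1:12620420-12620500: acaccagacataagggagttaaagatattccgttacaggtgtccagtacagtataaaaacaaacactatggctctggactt

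An AP-1 motif lay within the 200 bases around the peak centre in 151 of the 230 peaks, which is 65.7% (exact 95% binomial interval 59.1 to 71.8%, counting error only). The same motif was found in 6.73% of all kept peaks and in 9.29% of the kept peaks outside promoters. Only 6 of the 230 peaks lay in a promoter (from 1000 bases before to 100 bases after a transcription start), and with those left out the share was 65.2%. At least 2 AP-1 motifs were found in 30 of the peaks (13.0%, against 0.701% of kept peaks). All of the 10 peaks with the largest gain had one.

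The motif was concentrated near the middle of the peaks. In bins of 20 bases, it was most frequent from -60 to -40 bases of the centre, with 13.9 motifs per 100 peaks, against 1.10 in the same bin of kept peaks outside promoters. In those peaks no bin exceeded 1.27. Within 20 bases of the centre the motif was present in 41 of the 230 peaks (17.8%). The same share was 2.46% in kept peaks outside promoters and 24.4% in peaks gained with both stimuli at 1 h. The plot of motif positions shows the excess as a broad hump that had returned to near the level of other peaks at about 200 bases from the centre.

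**Figure D1:**
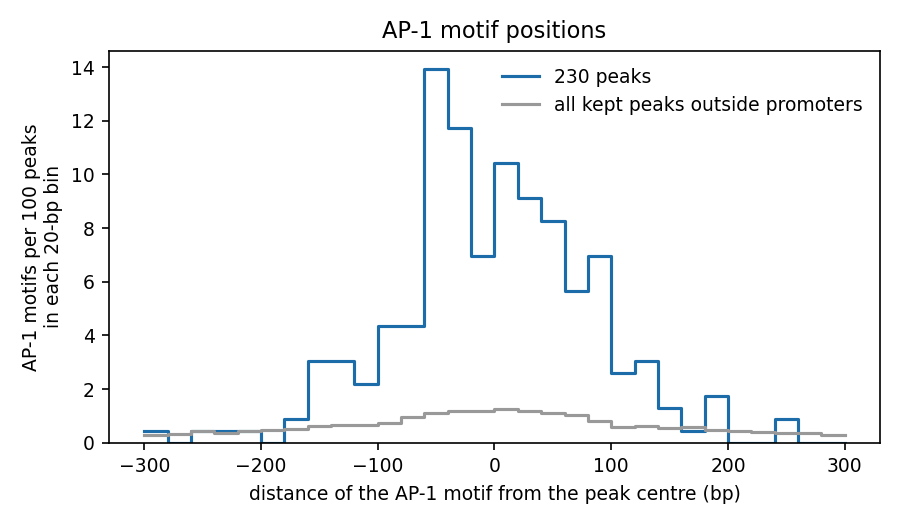
AP-1 motifs (TGAGTCA or TGACTCA) per 100 peaks, in 20-base bins, against the distance from the peak centre in bases, for the 230 peaks (blue) and all kept peaks outside promoters (grey). The 230 peaks reach 13.9 motifs per 100 peaks at -60 to -40 bases, where the grey line is at 1.10.

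Peaks that responded in other ways held the motif to different degrees. Peaks gained with both stimuli at 1 h (L of at least 1 in each, 557 peaks) held the motif in 67.3% (63.3 to 71.2%), and their interval overlapped that of the 230 peaks. Peaks gained with BDNF at 1 h that stayed below 0.5 with KCl at every time (432 peaks) held it in 24.1% (20.1 to 28.4%). Peaks gained with KCl at 6 and 10 h but with neither stimulus at 1 h numbered 27, of which 3 had the motif (11.1%, 2.35 to 29.2%). The intervals of the last 2 sets lay below that of the 230 peaks. All 4 sets were chosen by levels in the same libraries, and no test was made between them.

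Among 10 other motifs only MEF2 was more frequent in the 230 peaks than in kept peaks outside promoters by over 1 percentage point. The cAMP response element TGACGTCA, the EGR motif (GCGTGGGCG or GCGGGGGCG) and the ETS motif CCGGAAGT were in 0 of the 230 peaks, which allows a share of up to 1.59%, and were in 0.299, 0.370 and 0.189% of kept peaks outside promoters. An E-box of the kinds bound by neuronal bHLH factors (CAGATG or CAGCTG or CACGTG) was found in 39.1% of the 230 peaks and in 40.03% of kept peaks outside promoters. The homeobox core TAATTA was in 9.57% against 12.2%. The CTCF core CCANNAGGG was in 1.74% against 4.95%. The octamer ATGCAAAT was in 3.91% against 3.95%, the RFX word GTTGCCATG in 0.870% against 1.83%, and the CArG box, bound by serum response factor, in 1.30% against 1.12%. MEF2, a calcium-responsive factor, had its motif in 5.65% of the 230 peaks (13 peaks, 3.04 to 9.47%) and in 3.65% of kept peaks outside promoters. The share of MEF2 motifs was 7.36% in peaks gained with both stimuli at 1 h, 1.39% in those gained with BDNF only and 25.9% in the 27 gained late with KCl only. Each motif was searched on both strands, a match describes letters and not binding, and E-box and homeobox words are short enough to occur often by base composition.

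**Figure D2:**
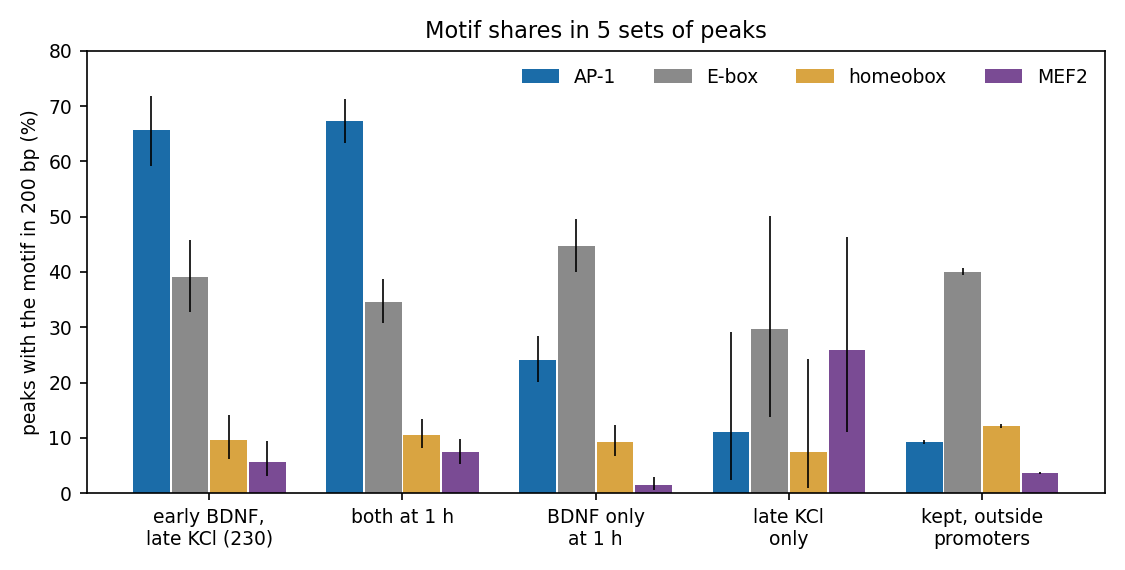
Percent of peaks with the AP-1, E-box, homeobox or MEF2 motif in the 200 bases around the centre, for the 230 peaks, the 3 other responding sets and all kept peaks outside promoters, with exact 95% binomial intervals as error bars. AP-1 stands at 65.7% in the 230 peaks and 67.3% in peaks gained with both stimuli at 1 h, against 24.1% in peaks gained with BDNF only and 9.29% in kept peaks outside promoters, while E-box and homeobox shares lie closer together.

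The peaks were mostly far from genes' starts. By the annotation 130 (56.5%) were intergenic, 83 (36.1%) intronic, 11 exonic and 6 in promoters, while 34.9% of all kept peaks were in promoters and 31.2% intergenic. The median distance to the nearest protein-coding start was 119 kb, against 71.0 kb for kept peaks outside promoters. They were narrower than the kept peaks (median 336.5 against 476 bases, or 398 outside promoters). They had fewer reads (median of the mean count 26.0 against 42.3, or 32.9 outside promoters) and a lower GC content (42.0 against 51.5%, or 47.0% outside promoters). Peaks gained with both stimuli at 1 h had like medians of 350 bases, 27.6 reads and 42.5% GC. A coding start lay within 50 kb of 67 peaks (29.1%), against 40.7% of kept peaks outside promoters.

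The peaks were spread over many loci, with few repeats. Chromosome 1 held 33 of them, or 14.3%, against 7.38% of kept peaks. Only 8 of the 230 had another of them within 50 kb, and at any distance 13 genes were nearest to 2 peaks, among them Mmp16 (a membrane-bound matrix metalloproteinase) at 12.2 and 689 kb and Pou3f2 (a neural POU transcription factor) at 450 and 660 kb. A stretch of 667 kb on chromosome 1 held 4 peaks whose nearest starts are those of clade B serpins, a family of intracellular protease inhibitors: chr1:106839527-106840022 at 21.4 kb from Serpinb5, chr1:107214772-107215064 at 63.4 kb from Serpinb3b, chr1:107429425-107429894 at 30.0 kb from Serpinb7 and chr1:107505936-107506247 at 5.33 kb from Serpinb2. This stretch was named after its values were seen. The AP-1 motif was in the first, second and last of the 4.

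In the libraries themselves, the summed CPM of the 230 peaks rose several-fold. In the 6 controls it was 651 to 915 (mean 779 ± 119 SD, n = 6, median 765). With BDNF the libraries had 3232 and 3317 at 1 h, 3006 and 2797 at 6 h, and then 3183 and 2645 at 10 h. With KCl they had 1112 and 799 at 1 h, 2300 and 2196 at 6 h, and then 2661 and 2319 at 10 h. The BDNF libraries of every time and the later KCl libraries all stood above the highest control, whereas 1 of the 2 KCl libraries at 1 h lay inside the control range and the other above it. The controls themselves differed by time, with 674 and 651 at 1 h, 832 and 698 at 6 h, and then 915 and 906 at 10 h, so that both KCl libraries at 1 h stood above both controls of the same time. The KCl libraries at 6 h were below all BDNF libraries, and those at 10 h overlapped the BDNF range. The 1 h and later KCl values and the BDNF 1 h values follow from the rule.

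**Figure D3:**
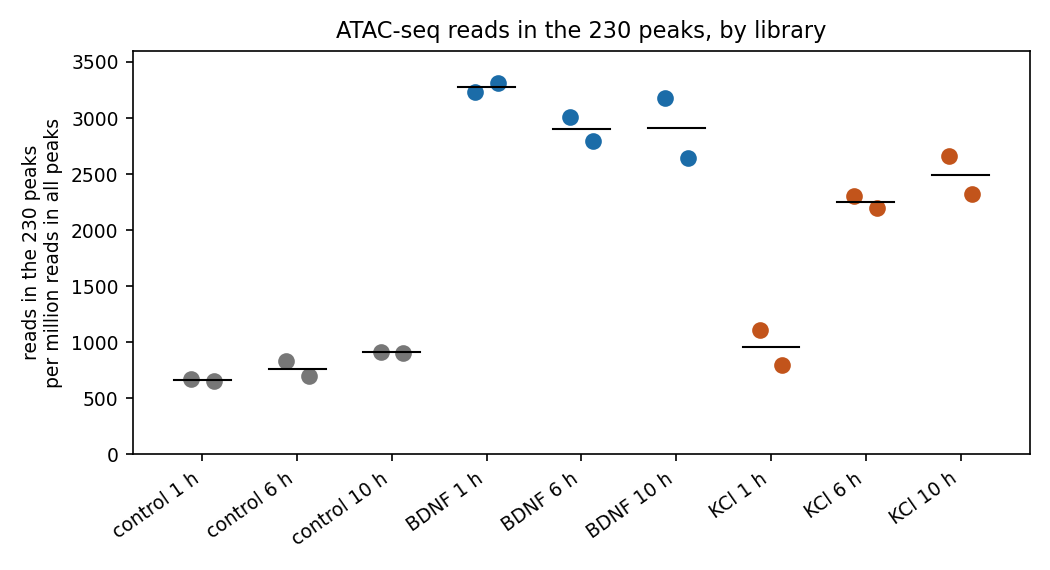
Summed CPM of the 230 peaks (reads in them, scaled to all reads in peaks), for each ATAC-seq library (points) with the mean of each pair (lines), by group. Controls lie at 651 to 915, BDNF libraries at 2645 to 3317 at all times, and KCl libraries at 799 and 1112 at 1 h and at 2196 to 2661 at 6 and 10 h.

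Peak by peak, L with BDNF had a median of 1.94 at 1 h (range 1.01 to 3.60), 1.79 at 6 h (0.00 to 3.52) and 1.75 at 10 h (0.19 to 3.38). With KCl the median was 0.28 at 1 h (-0.78 to 0.50), 1.38 at 6 h (1.00 to 2.34) and 1.47 at 10 h (1.00 to 2.81). At 1 h of KCl the quartiles were 0.07 and 0.39, so that most of the 230 peaks stood slightly above 0. Peaks with an AP-1 motif had somewhat larger medians of L with BDNF than those without, at 6 h (1.92 over 151 peaks against 1.66 over 79) and at 10 h (1.86 against 1.53). Neither later BDNF value had a limit in the rule, but both share their controls with it and their libraries entered the mean count. Only 19 of the 230 peaks had a mean count of at least 20 over the 6 controls, and 165 had it over the 14 libraries other than BDNF at 6 and 10 h, so the later BDNF values are not free of the selection.

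**Figure D4:**
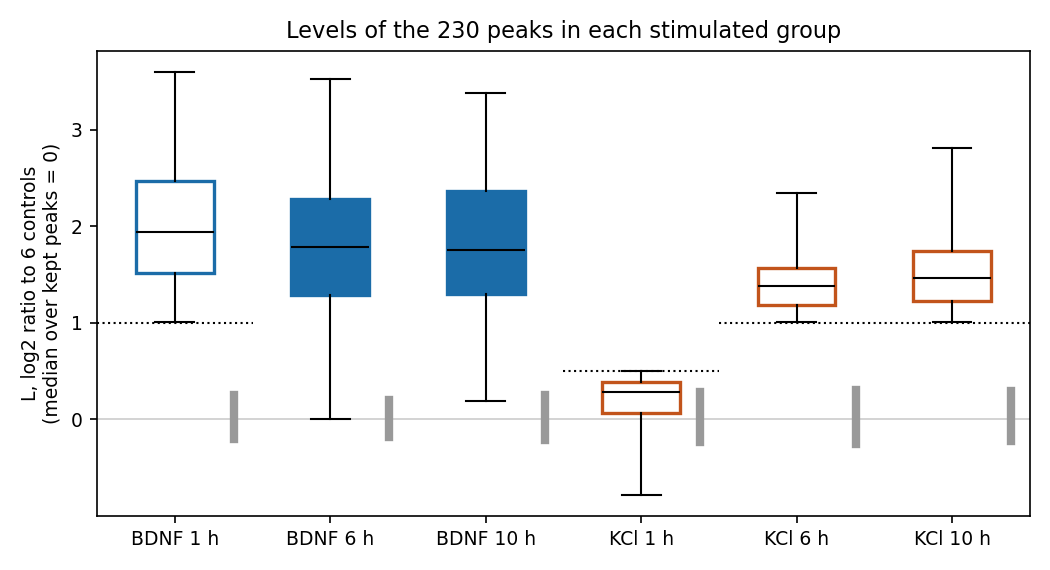
L, the log2 ratio to the 6 controls centred on the median of kept peaks, for the 230 peaks in each stimulated group. Boxes show the quartiles and median, whiskers the whole range, dotted lines the limits of the rule, filled boxes the 2 groups with no limit on L (their libraries entered the minimum mean count only), and grey bars the quartiles over all kept peaks. The medians with BDNF are 1.94, 1.79 and 1.75 at 1, 6 and 10 h, and those with KCl are 0.28, 1.38 and 1.47.

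The limits cut through a continuous range of levels. At the BDNF limit, chr1:142621476-142622117, in an intergenic stretch 1019 kb from B3galt2, was just inside with 1.01 and chr10:97436742-97436985, 42.7 kb from Dcn, just outside with 0.99, while 277 peaks met the other 3 limits. The KCl 1 h limit removed far more, since 925 peaks met the others, and its nearest peaks were chr6:65925923-65926371 inside at 0.499 and chr5:18228934-18229239 outside at 0.5004. At 6 h of KCl chr9:17909192-17909791 was just inside at 1.002 and chr1:107005231-107005712, 24.5 kb from Serpinb13, just outside at 0.999 (409 met the others). At 10 h of KCl chr2:139102893-139103085 was just inside at 1.002 and chr3:136941141-136941526, nearest to the calcineurin gene Ppp3ca, just outside at 0.996 (304 met the others).

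The KCl limit at 1 h also rested on a pair of libraries that differed in their summed CPM (1112 and 799, above). Chosen without the first of them, 421 peaks met the rule, of which 209 were among the 230, and without the second 140 did, of which 123 were among the 230. The shallowest library, KCl 6 h replicate B, had 1241829 reads in peaks, and the deepest had 6236439. Its median count over the 230 peaks was 11, against 37 in its partner. Without it 252 peaks met the rule, of which 194 were among the 230.

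Whether the gain lasted with BDNF was asked by comparing BDNF at 10 h with BDNF at 6 h, in 4 libraries on whose L the rule set no limit but which entered the minimum mean count. In edgeR's quasi-likelihood test over 56383 peaks with a mean count of at least 10, which included all 230, no peak of the whole table was called at a Benjamini-Hochberg adjusted p below 0.1 (background 0% higher and 0% lower). The lowest edgeR adjusted p among the 230 was 0.815. At an unadjusted p below 0.05 there were 6 of the 230 (2.61%, 2 higher and 4 lower at 10 h), against 5.55% of all tested peaks, and DESeq2 gave 5 and limma 4, each with 0 called. The log2 difference, 10 h minus 6 h, ran from -1.31 to 1.07 over the 230 with a median of -0.07 and quartiles of -0.39 and 0.18, 94 peaks above 0 and 136 below. The median over all tested peaks was -0.02. The sign of the median over the 230 rested on 1 library: it was 0.01 without BDNF 10 h replicate B (116 above 0 and 114 below), -0.22 without BDNF 10 h replicate A (75 and 155), -0.08 without BDNF 6 h replicate A (97 and 133) and -0.12 without BDNF 6 h replicate B (94 and 136). In these 4 fits 12, 6, 4 and 8 of the 230 had an unadjusted p below 0.05 and 0 were called, while 1 peak of the whole table was called in the first. With the minimum mean count taken without BDNF 6 and 10 h, an alternative chosen after seeing the data, 166 peaks met the rule (165 shared), with 0 called and a median of -0.09. With 2 libraries a group, such a result shows no detectable change and does not show that the levels were the same. In simulated data this comparison recovered 25 of 100 changes of 2-fold and 98 of 100 of 4-fold.

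Against the 6 controls, 209 of the 230 peaks were called higher with BDNF at 6 h (90.9%, edgeR adjusted p below 0.1, background 8.94%) and 0 lower (background 1.7%). The log2 fold change had a median of 1.87 and ran from -0.07 to 3.77. At 10 h of BDNF 192 were called higher (83.5%, background 7.49%) and 0 lower (background 1.88%), with a median of 1.79 and a range of 0.06 to 3.61. Both comparisons share their controls with the rule, which favoured peaks with low control values, and the minimum mean count favoured peaks with many reads in these BDNF libraries too, so these counts are no independent evidence of the direction. Of the 166 peaks chosen with that minimum taken without BDNF 6 and 10 h, 146 were called higher at 6 h (87.95%) and 133 at 10 h (80.1%). Against the controls of the same time alone the shares were 80.4% at 6 h and 59.1% at 10 h, and without 1 library they stayed between 65.7 and 92.2%.

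Counting only peaks whose 2 libraries both stood above all 6 controls in CPM gave like counts. With BDNF this held for 225 of the 230 at 1 h (12.5% of all kept peaks), 208 at 6 h (9.36%) and 196 at 10 h (10.2%). With KCl it held for 7 at 1 h (12.7%), 207 at 6 h (11.3%) and 216 at 10 h (12.9%). All of these libraries entered the rule, those of BDNF at 6 and 10 h through the minimum mean count and the others through L as well, and nothing is read from these counts.

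The peak with the largest gain was chr16:62729747-62730104, intergenic and 56.9 kb downstream of the start of Nsun3, which encodes a methyltransferase of a mitochondrial transfer RNA. Its CPM in the 6 controls ran from 0.569 to 4.02 with a median of 1.49. With BDNF it was 13.9 and 13.2 at 1 h, 6.40 and 7.38 at 6 h, and then 8.90 and 8.28 at 10 h. With KCl it was 2.28 and 1.44 at 1 h, 13.1 and 8.86 at 6 h, and then 12.7 and 13.7 at 10 h. All BDNF and late KCl libraries stood above every control, and both KCl 1 h libraries were within the control range. The log2 fold change with BDNF was 1.96 at 6 h (SE 0.41, edgeR adjusted p = 0.000112) and 2.17 at 10 h (SE 0.44, edgeR adjusted p = 0.000103), the latter not called against the controls of the same time alone (1.41, edgeR adjusted p = 0.137). The p-values of this peak and of each single peak below carry the selection described above. They are no independent evidence of a gain.

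The peak with the most reads among the 10 was chr4:10357417-10357924, intergenic and 513 kb from Gdf6, a growth factor of the BMP family. Its CPM was 2.28 to 11.5 in the controls (median 3.85). BDNF libraries had 31.9 and 33.8 at 1 h, 44.5 and 37.1 at 6 h, and then 39.1 and 35.3 at 10 h. KCl libraries had 8.62 and 5.61 at 1 h, 24.95 and 13.7 at 6 h, and then 35.5 and 30.8 at 10 h. Again the KCl 1 h libraries lay within the controls and every other stimulated library lay above them. The log2 fold change with BDNF was 3.04 at 6 h (SE 0.23, edgeR adjusted p = 1.82e-22) and 2.89 at 10 h (SE 0.25, edgeR adjusted p = 4.99e-18).

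A similar course was seen at chr19:38973713-38974146, intergenic and 33.1 kb upstream of Cyp2c55, a cytochrome P450 gene. Its CPM was 1.42 to 9.07 in the controls (median 3.999). It was 32.2 and 36.4, 39.5 and 34.8, and 36.1 and 35.7 with BDNF at 1, 6 and 10 h, and 6.08 and 3.05, 25.4 and 12.9, and 18.1 and 17.1 with KCl at the same times. The KCl levels at 6 and 10 h were above all controls and below every BDNF library. BDNF gave a log2 fold change of 3.16 at 6 h (SE 0.24, edgeR adjusted p = 4.82e-22) and 3.08 at 10 h (SE 0.26, edgeR adjusted p = 1.28e-18).

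Another of the peaks with the largest gain was chr9:18028879-18029215. It is intergenic and 263 kb from Chordc1, and the log2 fold change with BDNF was 3.05 at 6 h and 3.34 at 10 h (SE 0.37 and 0.38, edgeR adjusted p = 1.82e-11 and 4.13e-12). A further 5 were chr9:73683703-73683985 in an intron of Unc13c (a presynaptic priming factor), chr8:53146721-53146991 at 365 kb from Aga, chr10:56061532-56061837 in an intron of Tbc1d32, chr15:65342489-65342865 at 328 kb from Gm21961 and chr1:111696844-111697075 at 168 kb from Dsel. Their log2 fold changes ran from 1.59 to 2.54 at 6 h and from 1.58 to 2.72 at 10 h, all called. The calls at 6 h for the Unc13c and Aga peaks were lost without BDNF 6 h replicate A (1.36 and 1.07), and that at 10 h for the Aga peak without BDNF 10 h replicate A (1.02) and against same-time controls (1.16).

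Values are also given for 3 peaks near genes whose RNA is described further on. The peak 5.33 kb upstream of Serpinb2, chr1:107505936-107506247, had a CPM of 2.12 to 4.95 in the controls (median 3.04). It was 21.4 and 13.0 with BDNF at 1 h, 14.2 and 7.55 at 6 h, and then 3.95 and 5.04 at 10 h. With KCl it was 2.53 and 1.28 at 1 h, 5.70 and 11.3 at 6 h, and then 12.1 and 5.60 at 10 h. By 10 h of BDNF one library was inside the control range and the other just above it. The log2 fold change over the controls was 1.72 at 6 h (SE 0.36, edgeR adjusted p = 0.000142) and 0.41 at 10 h (SE 0.47, edgeR adjusted p = 0.73), and the 10 h minus 6 h difference of -1.31, the lowest of all 230, was not called.

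The peak 49.9 kb upstream of Hrh1, chr6:114347804-114348194, was at 10.4 to 16.7 CPM in every BDNF library. Its CPM was 2.85 to 3.73 in the controls. BDNF libraries had 11.8 and 16.7, 11.4 and 13.6, and 13.3 and 10.4 at 1, 6 and 10 h, and KCl libraries had 2.28 and 3.37, 6.42 and 9.66, and 9.38 and 7.78. With BDNF the log2 fold change was 1.84 at 6 h (SE 0.33, edgeR adjusted p = 3.73e-06) and 1.67 at 10 h (SE 0.36, edgeR adjusted p = 0.000363). The peak 11.2 kb upstream of Arhgap36, chrX:49452611-49452915, had 1.596 to 7.83 CPM in the controls (median 3.31). With BDNF it had 9.68 and 7.13, 16.1 and 11.8, and 8.90 and 10.4, so that 1 library at 1 h lay within the control range. With KCl it had 5.32 and 5.61, 12.8 and 12.9, and 13.7 and 9.96. Its log2 fold change with BDNF was 1.91 at 6 h (SE 0.33, edgeR adjusted p = 1.98e-06) and 1.32 at 10 h (SE 0.38, edgeR adjusted p = 0.0137).

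RNA-seq of the same conditions was used to ask what the genes nearest to the peaks did, a readout that the rule did not use. A protein-coding start within 50 kb linked 67 of the 230 peaks to 67 genes. Of these genes 58 were in the expression table, and 36 had a mean of at least 10 normalised read counts and were tested with limma on log2(value + 1), among 16209 tested genes. The other 22 in the table were below that mean and 9 were not in it. Peaks with no start within 50 kb were linked to no gene, and the nearest start need not be the gene that a peak acts on.

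The shares of the 36 genes called in each comparison stand here beside those of all tested genes. With BDNF at 1 h 6 were called higher (16.7%, background 21.3%, limma adjusted p below 0.1) and 5 lower (13.9%, background 19%). At 6 h of BDNF 8 were higher (22.2%, background 22.1%) and 5 lower (13.9%, background 21.1%), and at 10 h 8 were higher (22.2%, background 21.1%) and 3 lower (8.33%, background 19.5%). With KCl at 1 h 6 were higher (16.7%, background 26.5%) and 13 lower (36.1%, background 28.2%). At 6 h of KCl 10 were higher (27.8%, background 33.4%) and 10 lower (27.8%, background 33.1%). At 10 h of KCl 14 were higher (38.9%, background 29%) and 5 lower (13.9%, background 28.2%). The median log2 change over the 36 was -0.03, 0.00 and -0.05 with BDNF and -0.21, -0.02 and 0.16 with KCl at 1, 6 and 10 h, where the median over all tested genes was within 0.01 of 0. The shares lay on both sides of the background. With 36 genes a few calls move a share by several points, and no share was tested against its background.

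The shares in the contrasts closest to the peaks' own course were not tested against the background either. BDNF at 1 h against KCl at 1 h had 11 of 36 higher (30.6%, background 24.6%) and 5 lower (13.9%, background 18.2%). KCl at 6 h against KCl at 1 h had 13 higher (36.1%, background 30.9%) and 6 lower (16.7%, background 28.7%). Genes called higher with BDNF at 1 h and with KCl at 6 and 10 h but not higher with KCl at 1 h were 2 of the 36 (5.56%), against 574 of 16209 (3.54%). These were Hrh1 and Spaca6, of which Spaca6 was called lower with KCl at 1 h (-3.27) and had log2 changes of 0.00 and -0.13 with BDNF at 6 and 10 h. Counts that rested on 1 library were the 6 higher with KCl at 1 h, which fell to 2 without KCl 1 h replicate B, the 8 higher with BDNF at 6 h, 5 without either library of that group, and the 8 higher with BDNF at 10 h, 4 without replicate A. Among lower calls, the 5 with BDNF at 6 h were 1 without either library of that group and 2 without control 1 h replicate B or control 6 h replicate B, and the 3 with BDNF at 10 h were 2 without BDNF 10 h replicate A and 5 without control 1 h replicate A. The 10 lower with KCl at 6 h were 6 without replicate B, and the 5 lower with KCl at 10 h were 2 without replicate A and 3 without B. The 5 lower in BDNF at 1 h against KCl at 1 h were 2 without BDNF replicate A, 1 without BDNF replicate B, 3 without KCl replicate A and 2 without KCl replicate B.

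Hrh1, which encodes the histamine H1 receptor, had RNA that rose early with BDNF and late with KCl. Its normalised read count was 17.1 to 32.3 in the 6 controls (median 26.5). It was 246 and 221, 134 and 121, and 78.0 and 80.98 with BDNF at 1, 6 and 10 h, and 21.0 and 23.5, 64.9 and 63.7, and 40.3 and 49.0 with KCl. Both KCl 1 h libraries were inside the control range, and all other stimulated libraries above it. The log2 change with BDNF was 3.15 at 1 h (SE 0.18, limma adjusted p = 9.37e-12), 2.28 at 6 h and 1.61 at 10 h. With KCl it was -0.19 at 1 h (limma adjusted p = 0.432), 1.31 at 6 h (limma adjusted p = 2.94e-06) and 0.78 at 10 h (limma adjusted p = 0.00131). KCl at 6 h exceeded KCl at 1 h by 1.49 (SE 0.23, limma adjusted p = 1.07e-05).

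Serpinb2, which encodes plasminogen activator inhibitor 2, rose with BDNF at all times and with KCl at 6 h, at lower counts. The controls had 7.83 to 12.4 (median 11.2). BDNF libraries had 109.5 and 113, 94.6 and 82.3, and 58.8 and 49.9 at 1, 6 and 10 h. KCl libraries had 7.41 and 7.48, 20.6 and 17.4, and 14.7 and 12.0. The RNA was thus still at several times the control level with BDNF at 10 h, when the peak upstream was near the control range. The log2 change was 3.31 with BDNF at 1 h (SE 0.23, limma adjusted p = 1.29e-10) and 2.29 at 10 h (limma adjusted p = 1.12e-07). With KCl it was -0.42 at 1 h (limma adjusted p = 0.135), 0.82 at 6 h (limma adjusted p = 0.00361) and 0.34 at 10 h (limma adjusted p = 0.229). The gene overlaps Serpinb10 on the same strand, so that their reads may be shared. Of the neighbouring serpin genes, Serpinb5 and Serpinb7 averaged 3.79 and 1.28 counts and were not tested.

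Arhgap36, known as an inhibitor of protein kinase A, was called higher with BDNF at 6 and 10 h and not at 1 h. Its normalised read count was 2.40 to 12.6 in the controls (median 7.20). With BDNF it was 13.7 and 4.58 at 1 h, 94.6 and 77.8 at 6 h, and then 97.2 and 105 at 10 h. With KCl it was 7.41 and 5.35, 11.8 and 12.7, and 12.2 and 16.3. The log2 change was 0.24 with BDNF at 1 h (limma adjusted p = 0.7), 3.496 at 6 h (SE 0.40, limma adjusted p = 5.82e-07) and 3.73 at 10 h (limma adjusted p = 3.67e-07). With KCl it was 0.79 at 6 h (limma adjusted p = 0.0954), a call lost under 10 of 15 alternatives, and 0.98 at 10 h (limma adjusted p = 0.0471). The peak upstream was gained with both stimuli at 6 h to a like CPM, while the RNA counts with BDNF, 94.6 and 77.8, exceeded those with KCl, 11.8 and 12.7.

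**Figure D5:**
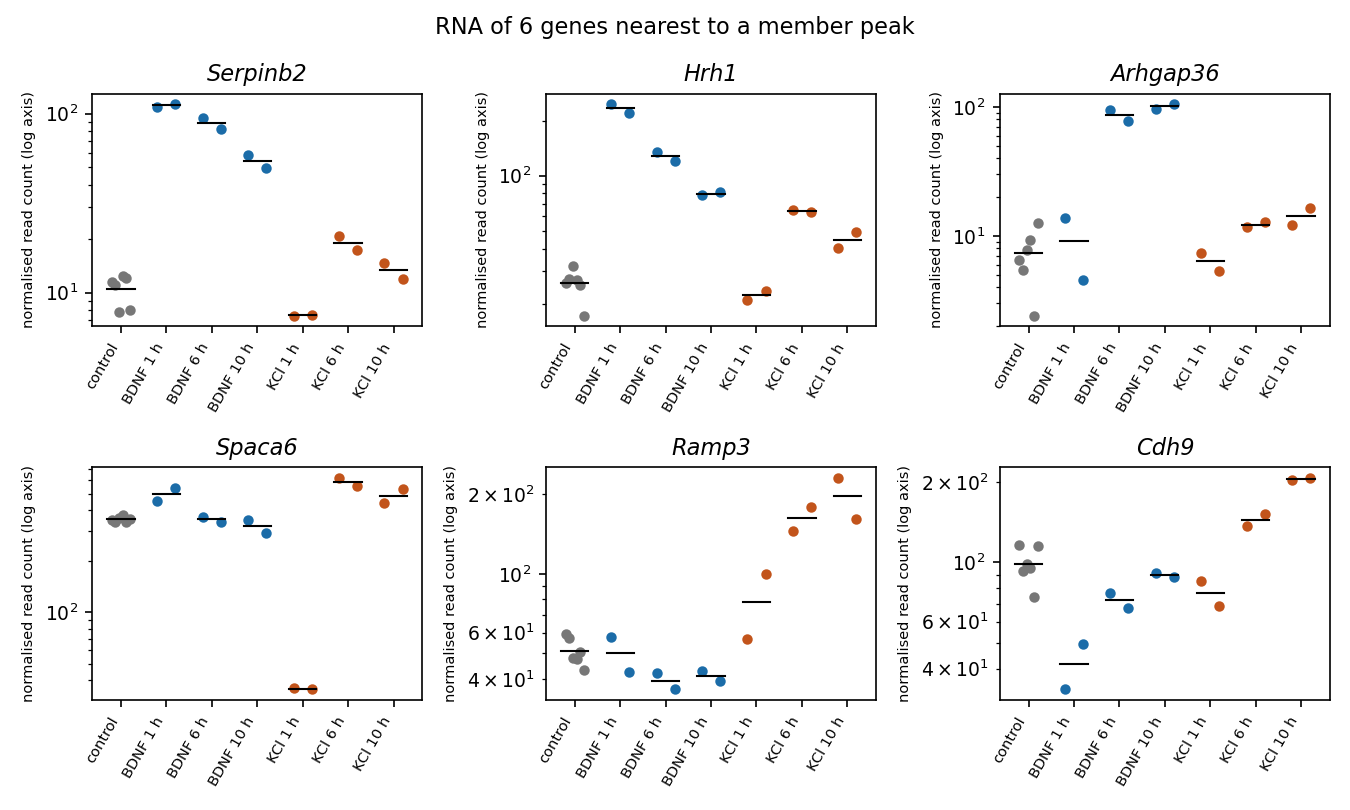
Normalised read counts (log axis) of 6 genes nearest to one of the 230 peaks, for each library (points) with the group mean (lines), in the 6 controls and in each stimulated group. Hrh1 and Serpinb2 rise with BDNF at 1 h and with KCl at 6 h, Arhgap36 with BDNF at 6 h (94.6 and 77.8), Spaca6 drops with KCl at 1 h (35.8 and 35.3), Ramp3 rises with KCl, and Cdh9 is lowest with BDNF at 1 h.

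The other 4 genes called higher rose with BDNF at 1 h by 1.03 or less on the log2 scale. Otud1, a deubiquitinase gene with a peak 10.6 kb upstream, rose by 1.03 (SE 0.11, limma adjusted p = 3.37e-07) and was also higher with KCl at 1 h (0.57, limma adjusted p = 0.000306). Lpin2, a phosphatidate phosphatase gene, rose by 0.71 (SE 0.06, limma adjusted p = 9.96e-09) and fell by 0.29 with KCl at 1 h. Reps1, which has a role in endocytosis, rose by 0.40 (SE 0.07, limma adjusted p = 0.000207). Spaca6, known for its part in sperm and egg fusion, rose by 0.48 (SE 0.09, limma adjusted p = 0.000341).

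Spaca6 had the largest swing with KCl. The controls had 338 to 372 normalised counts, the KCl libraries 35.8 and 35.3 at 1 h, 620 and 555 at 6 h, and then 440 and 528 at 10 h. The log2 change with KCl was -3.27 at 1 h (SE 0.09, limma adjusted p = 3.17e-17) and 0.73 at 6 h (limma adjusted p = 7.85e-07). KCl at 6 h exceeded KCl at 1 h by 4.01 (SE 0.12, limma adjusted p = 1.45e-16). In the annotation its locus holds Mir99b, Mirlet7e and Mir125a on the same strand, and reads of their primary transcript cannot be told apart from those of Spaca6.

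Genes that fell with BDNF at 1 h included Cdh9, a cadherin of synaptic contacts, which fell by 1.24 (SE 0.17, limma adjusted p = 3.81e-06). Its counts were 74.5 to 117 in the controls and 33.5 and 49.6 with BDNF at 1 h, whereas it was 137 and 152 with KCl at 6 h and 204 and 208 at 10 h. With KCl it rose by 0.55 at 6 h (limma adjusted p = 0.00649) and 1.07 at 10 h (limma adjusted p = 1.65e-05). E130311K13Rik fell by 0.83, Msl3l2 by 0.80 and Mocs1, of molybdenum cofactor synthesis, by 0.77 (limma adjusted p = 0.000332, 0.00201 and 0.000184). All of these genes were also called lower with KCl at 1 h. There the log2 changes of Cdh9, E130311K13Rik, Msl3l2 and Mocs1 were -0.35, -0.68, -1.30 and -0.89 (limma adjusted p = 0.0823, 0.00133, 5.36e-06 and 2.05e-05). E130311K13Rik and Mocs1 also fell with KCl at 6 h, by 1.38 and 0.82. Msl3l2 overlaps Tbc1d32 on the other strand, and whether reads were counted by strand is not stated.

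With KCl at 6 h the largest rise was that of Ramp3, a partner of calcitonin family receptors, by 1.65 (SE 0.20, limma adjusted p = 2.71e-07). Its counts were 43.4 to 59.1 in the controls, 56.8 and 99.4 with KCl at 1 h, then 146 and 178 at 6 h and 231 and 161 at 10 h. None of its BDNF libraries exceeded the controls. Slitrk6, a neuronal transmembrane protein gene, rose by 0.67 (limma adjusted p = 0.0171). Syn3, which encodes synapsin III and overlaps Timp3 on the other strand, where counting by strand is not stated, fell by 1.44 (SE 0.14, limma adjusted p = 2.21e-08), and Slc41a3, of a magnesium transporter family, by 0.82 (limma adjusted p = 0.000517). With KCl at 1 h small rises were called for Ramp3 (0.56), Slc41a3 (0.49) and Grm8, a metabotropic glutamate receptor gene (0.37), and all 3 calls were lost without KCl 1 h replicate B. Without KCl 6 h replicate B the rise of Slitrk6 was 0.63 and not called (limma adjusted p = 0.1004).

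The proteins that bind the shared motif are encoded by the AP-1 subunit genes, Fos, Fosb, Fosl1, Fosl2, Jun, Junb and Jund. All 7 were called higher with BDNF at 1 h (background 21.3%) and 6 of them with KCl at 1 h (background 26.5%). They did not move alike: against KCl at 1 h, BDNF at 1 h gave more RNA of 4 subunits (background 24.6%) and less of 3 (background 18.2%). Fosl1 had 57.7 to 77.9 normalised counts in the controls, 195 and 179 with BDNF at 1 h, and 87.7 and 74.8 with KCl at 1 h, a difference of 1.19 (SE 0.18, limma adjusted p = 2.38e-05). Jun had 1096 to 1255 in the controls, 2904 and 3184 with BDNF and 1466 and 1526 with KCl, a difference of 1.02 (SE 0.09, limma adjusted p = 1.92e-08). Jund and Fosl2 differed by 0.71 and 0.63 in the same direction (limma adjusted p = 0.000245 and 0.0156). In the opposite direction stood Fos, Fosb and Junb. Fos had 25.1 to 43.3 in the controls, 1715 and 1738 with BDNF and 5742 and 5274 with KCl, a difference of -1.67 (SE 0.18, limma adjusted p = 2.97e-07). Fosb differed by -2.80 and Junb by -0.82 (limma adjusted p = 3.27e-08 and 0.000387).

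Later the subunits parted between the stimuli. With KCl at 6 h, 4 were called higher (background 33.4%) and 2 lower (33.1%). Fos was still up by 5.66 on the log2 scale, Fosb by 5.498, Junb by 2.95 and Fosl2 by 1.58, while Jun fell by 0.59 and Fosl1 by 0.55. With BDNF at 6 h, 3 were called higher (background 22.1%), Junb by 2.02, Fos by 1.73 and Jun by 0.20, and none lower. At 10 h, 2 were higher with BDNF (background 21.1%), and 5 were higher and 2 lower with KCl (29 and 28.2%). The list, and those that follow, were put together with earlier results of these data known.

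Other genes of the activity response moved with both stimuli. The 4 EGR factors were all called higher with BDNF at 1, 6 and 10 h and with KCl at 1 and 6 h, and 3 were higher and 1 lower with KCl at 10 h. Of 34 further activity genes, 31 were higher with BDNF at 1 h, 24 at 6 h and 23 at 10 h, and 29, 32 and 32 with KCl. Of the same genes 3 were lower with BDNF at 6 h, 3 at 10 h and 2 with KCl at 1 h, and 0 in the other 3 comparisons. At 1, 6 and 10 h the background of genes called higher was 21.3, 22.1 and 21.1% for BDNF, against 26.5, 33.4 and 29% for KCl. The background of genes called lower was 19, 21.1 and 19.5% for BDNF, against 28.2, 33.1 and 28.2% for KCl. None of the genes on these lists had one of the 230 peaks within 50 kb. The nearest were 186 kb from Pcsk1, a prohormone convertase gene, 361 kb from Ptgs2 and 409 kb from Nr4a2.

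The cultures expressed the markers of neurons. The summed normalised counts of 9 neuronal markers were 49810 to 55633 in the controls, 50980 to 57367 with BDNF and 47737 to 58804 with KCl. With BDNF at 1, 6 and 10 h, 5, 5 and 4 of the 9 were called higher (background 21.3, 22.1 and 21.1%). With KCl 6, 6 and 6 were called higher (background 26.5, 33.4 and 29%). Called lower were 0, 2 and 2 with BDNF (background 19, 21.1 and 19.5%) and 1, 2 and 2 with KCl (28.2, 33.1 and 28.2%). Astrocyte markers summed to 8876 to 11854 in the controls, 8719 to 11290 with BDNF and 7059 to 12651 with KCl. Of these 5 markers, 4 were called lower with BDNF at 6 h (background 21.1%) and with KCl at 6 and 10 h (33.1 and 28.2%). Oligodendrocyte lineage markers summed to 5713 to 6194, 5457 to 6495 and 4199 to 7242. With KCl at 1 h 3 of these 5 were called lower (background 28.2%), and BDNF at 1 h exceeded KCl at 1 h in all 5 (background 24.6%). Markers of microglia stayed below 98.4 and those of endothelium below 29.4, with Cldn5 at 0 in some libraries. Markers of dividing cells, Mki67 and Top2a, summed to 3352 to 5730 in the controls, 2908 to 4705 with BDNF and 2287 to 5309 with KCl. Both were called lower with each stimulus at 6 and 10 h (background 21.1 and 19.5% for BDNF, 33.1 and 28.2% for KCl). The part of these shifts in the results above was not tested.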

How the data were processed

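ATAC-seq and RNA-seq were each measured in 18 libraries, 2 for each of 9 groups. For ATAC-seq the authors trimmed reads, aligned them to mm10 with Bowtie2, called peaks with MACS2 and deposited 1 table of raw read counts per consensus peak, made with DiffBind, in which the lowest value is 1. For RNA-seq the authors aligned reads with TopHat2 and deposited 1 table of gene counts divided by DESeq2 size factors, a normalised signal from which whole reads were recovered (100% of values within 0.01). Which program counted reads per gene, and whether by strand, is not given in the sources used here. Deposited tables with the authors' own comparisons hold fold changes and p-values and were not used, and 0 sample columns were left out. Columns name a group and a replicate letter or position, so ATAC-seq libraries could not be paired with RNA-seq libraries.

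Depth was 1241829 to 6236439 reads in peaks (ATAC-seq) and 8508452 to 36699187 reads (RNA-seq). Replicates differed by more than counting noise, and no 2 columns were identical. The chi-square per degree of freedom was 2.06 to 2.58 in ATAC-seq and 2.44 to 39.6 in RNA-seq. The highest RNA-seq value was that of KCl at 6 h, followed by 10.4 in the controls of 1 h. Low counts (a median of 8 to 12 reads per peak in the controls) limit what a single peak can show, and binomial intervals cover counting error only.

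For CPM and L, peaks were scaled to reads in peaks. edgeR 4.0.16 (quasi-likelihood, a mean count of at least 10) fitted all 9 groups with the 6 controls as 1 group. Its main fit used LOESS offsets instead, a scaling of each library that varies with the average count of a peak. For genes with a mean of at least 10, limma 3.58.1 fitted log2(signal + 1) with the same groups. Both ran in R 4.3.3, with Benjamini-Hochberg adjusted p below 0.1 as a call. DESeq2 1.42.0 was an alternative. The fits were tested on simulated data with a spread set beforehand. For ATAC-seq, BDNF 10 h against 6 h, 25 of 100 changes of 2-fold and 98 of 100 of 4-fold were recovered. For RNA-seq, BDNF 1 h against controls, 95 of 100 and 100 of 100 were recovered. Motifs were searched in the RefSeq mm10 genome in 200 bases, and the nearest protein-coding start was taken within 50 kb. Named peaks were the 10 with the largest smallest gain, those at the limits and those nearest to named or listed genes, and 1 of the 10 is not reported here. Named genes were, among those called, the 8 with the largest rise and the 4 with the largest fall at BDNF 1 h and KCl 6 h, and the 4 with the largest rise at KCl 1 h. The members, lists and rules were chosen with earlier results of these data known.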

Additional observations from a re-analysis of the deposited data

Results flagged for a closer look

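The response to KCl differed between 6 h and 1 h, by limma's test of the difference itself (adjusted p below 0.1), in 13 of the 16 named genes nearest to the peaks (of all tested genes 30.9% were higher and 28.7% lower). KCl at 6 h was higher than KCl at 1 h for Spaca6 (4.01 on the log2 scale), Hrh1 (1.49), Serpinb2 (1.24), Ramp3 (1.09), Msl3l2 (0.93), Cdh9 (0.91), Slitrk6 (0.90) and Lpin2 (0.39). It was lower for Syn3 (-1.68), Slc41a3 (-1.31), E130311K13Rik (-0.69), Grm8 (-0.52) and Reps1 (-0.27). The genes were named for large changes at these times, so their number says nothing of the other genes. In 27 checks of the 6 controls, 0 had a control far from the rest by Dixon's test, where chance would give about 1 in 20.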

How the results depend on the processing

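The number of peaks that met the rule, 230, moved most with its own settings: 541 with a minimum mean count of 10 (209 shared), 19 with 50 (14 shared), 139 against controls of the same time (83 shared), and 140 to 421 when 1 library was left out, the extremes being the KCl 1 h libraries. Chosen with TMM scaling they were 227 (226 shared) and with LOESS offsets 190 (173 shared). The AP-1 share was 41.7% in 100 bases, 74.3% in 400 bases and 74.8% in whole peaks. In alternatives added after seeing the data it was 62.7% of the 252 peaks chosen without the shallowest library and 68.4% of the 190 chosen with LOESS offsets.

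Of the genes nearest to the peaks, the share called higher with BDNF at 1 h was 10.3% with no filter on low values, and for BDNF at 1 h against KCl at 1 h 18.97%. At an adjusted p below 0.01 the shares were 13.9% and 11.1% (BDNF 6 and 10 h) and 5.56%, 16.7% and 25% (KCl 1, 6 and 10 h), where those of all tested genes were 12.7, 11.0, 16.4, 24.9 and 19.2%. With KCl at 1 h the share was 11.1% against same-time controls, 5.26% with links within 20 kb and 27.0% with the peaks chosen without the shallowest library. Leaving out 1 library gave 13.9 to 22.2% (BDNF 6 h), 11.1 to 22.2% (BDNF 10 h) and 5.56 to 22.2% (KCl 1 h). No called value changed direction in these alternatives, while the median of BDNF 10 h minus 6 h, with 0 called, went from -0.07 to 0.01 without BDNF 10 h replicate B. In all, 198 of 220 values of the main comparisons and 775 of 832 of single genes, peaks and lower calls kept their call and size. Calls were lost in 23 of 690 values of named genes and peaks, 10 of them for Arhgap36 with KCl at 6 h (0.55 to 0.95 without 1 library).

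RNA-seq replicate letters did not pair the groups (correlation of deviations -0.31 to 0.42 over 36 pairs of groups, 13 above 0.1), and with the letter as a replicate block the shares called higher at 1, 6 and 10 h were the same as without it (BDNF 16.7, 22.2 and 22.2%, KCl 16.7, 27.8 and 38.9%). No paired analysis was possible for ATAC-seq because its columns carry no replicate numbers. Depth limits single peaks most, with a median of 8 to 12 reads in controls.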
